A study of Mus musculus with 6 samples.

Results

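Wide shared Onecut3 regions are stretches of at least 600 bp of the mouse genome in which an anti-FLAG ChIP-Seq peak was called in each of 3 libraries from Onecut3-OE cells. Peaks from the 3 lists were joined wherever they overlapped by at least 1 bp, and the joined stretch from the first to the last peak edge was taken as the merged width. Of 50844 merged regions in all, 5099 on chromosomes 1 to 19 and X held a peak from every list and were called shared. Among these, 516 (10.1%) reached 600 bp and were called wide, and the other 4583 were called narrower. Width, the number of peaks, their summits, folds and q values all come from the peaks that chose the regions, so they are given as a description, with no test.

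The cells were mouse embryonic fibroblasts (MEFs) of the C57BL/6 strain. ONECUT3 overexpression (OE) was induced with 100 ng/ml doxycycline (Dox) from the Retro-X Tet-One system, and chromatin was precipitated with the monoclonal FLAG M2 antibody in the 3 Onecut3-OE libraries analysed. The series has 6 ChIP-Seq samples, and the other 3, an OE input, an OE IgG and a control without Dox precipitated with the FLAG antibody, were not analysed here. The peaks describe an induced, tagged protein and not the endogenous one. The labels do not say whether the 3 libraries came from separate cultures, so differences between lists may be technical. Peak lists hold no expression values, so the fibroblast label could not be checked against marker genes.

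ONECUT3 belongs to the ONECUT family of transcription factors, which bind DNA through a single cut domain followed by a homeodomain and are known for their roles in liver, pancreas and neurons. The family recognises a short AT-rich core, ATCAAT on either strand (read as ATTGAT from the other strand), with the palindrome ATCGAT as a close variant. In ChIP-Seq, DNA is sheared before precipitation and a peak caller marks where fragments pile up, so a peak is much longer than the site a protein touches. The summit is the base at which the pileup of a peak is highest. A wide region can therefore be 1 long peak, several peaks side by side, or peaks from different lists that overlap only at their edges.

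Genome sequence was at hand only for RefSeq promoter windows of GRCm38.p6, each running from 250 bp before to 50 bp after a transcription start. Of the 516 wide regions, 33 (6.40%, 95% interval 4.44% to 8.86%) overlapped such a window, as did 317 of the narrower ones (6.92%, 6.20% to 7.69%). A wider region overlaps a window more easily. By summit, 5.50% of wide regions (3.69% to 7.85%) lay within 500 bp of a transcription start, on chromosomes with windows. For narrower ones it was 7.10% (6.36% to 7.89%). The window table covers 79.9% of the 21631 protein-coding genes used. The 6 windows printed here are the 5 in which all 3 summits of a wide region lay closest to an ONECUT core, plus that of Zfhx2, the strongest wide region at a promoter. Capitals mark these cores on either strand, and each window is read 5′ to 3′ on the strand of its gene.
Bbs10: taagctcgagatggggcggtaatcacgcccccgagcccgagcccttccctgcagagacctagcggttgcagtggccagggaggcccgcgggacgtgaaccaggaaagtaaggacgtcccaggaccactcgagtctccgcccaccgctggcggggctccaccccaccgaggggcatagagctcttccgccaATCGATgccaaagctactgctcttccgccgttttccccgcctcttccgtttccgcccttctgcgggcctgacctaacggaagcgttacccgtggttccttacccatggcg
Zfp27: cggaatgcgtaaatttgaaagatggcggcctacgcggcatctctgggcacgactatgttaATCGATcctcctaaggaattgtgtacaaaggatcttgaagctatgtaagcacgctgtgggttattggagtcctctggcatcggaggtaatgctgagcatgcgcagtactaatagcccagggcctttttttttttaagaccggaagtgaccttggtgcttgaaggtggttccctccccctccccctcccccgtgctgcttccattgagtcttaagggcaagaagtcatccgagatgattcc
Gm35940: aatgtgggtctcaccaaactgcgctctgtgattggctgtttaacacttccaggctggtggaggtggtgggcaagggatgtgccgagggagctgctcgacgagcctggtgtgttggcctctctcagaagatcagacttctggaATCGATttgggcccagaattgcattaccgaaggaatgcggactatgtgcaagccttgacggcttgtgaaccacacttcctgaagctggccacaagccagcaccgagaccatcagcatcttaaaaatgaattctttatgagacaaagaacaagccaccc
Hdhd3: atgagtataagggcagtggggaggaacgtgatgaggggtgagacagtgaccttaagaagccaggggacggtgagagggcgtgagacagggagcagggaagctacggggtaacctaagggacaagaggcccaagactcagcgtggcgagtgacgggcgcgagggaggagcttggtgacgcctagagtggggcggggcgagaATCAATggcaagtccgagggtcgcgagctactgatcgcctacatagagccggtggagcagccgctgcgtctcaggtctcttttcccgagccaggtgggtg
Hoxa2: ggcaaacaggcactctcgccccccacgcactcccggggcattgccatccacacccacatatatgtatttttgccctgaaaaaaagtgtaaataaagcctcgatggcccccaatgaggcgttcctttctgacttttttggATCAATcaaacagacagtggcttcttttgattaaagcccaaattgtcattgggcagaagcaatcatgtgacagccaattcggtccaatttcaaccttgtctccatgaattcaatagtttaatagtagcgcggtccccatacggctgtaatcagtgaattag
Zfhx2: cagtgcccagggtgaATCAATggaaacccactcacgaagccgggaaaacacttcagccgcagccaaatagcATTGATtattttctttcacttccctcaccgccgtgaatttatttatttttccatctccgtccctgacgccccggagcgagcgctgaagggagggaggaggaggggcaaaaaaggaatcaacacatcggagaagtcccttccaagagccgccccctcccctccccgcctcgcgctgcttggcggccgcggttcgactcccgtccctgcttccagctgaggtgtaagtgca

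Bbs10 encodes a chaperonin-like protein needed to assemble the BBSome of cilia. Its window lies at chr10:111298429-111298728 on the plus strand, and the middle of its ATCGAT was 48.5, 10.5 and 3.5 bp from the summits of replicates 1, 2 and 3. The window of Zfp27, a zinc finger protein gene, is chr7:29906055-29906354 on the minus strand, with the ATCGAT 9.5, 31.5 and 3.5 bp from the summits. Gm35940, a predicted gene, has its window at chr9:41805549-41805848 on the plus strand, and there the ATCGAT lay 66.5, 21.5 and 35.5 bp from them. The window of a predicted gene on the opposite strand holds that same ATCGAT. In these 3 regions every summit was therefore within 66.5 bp of an ATCGAT.

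The other printed windows hold ATCAAT or ATTGAT. Hdhd3, a haloacid dehalogenase-like protein gene, has its window at chr4:62502151-62502450 on the minus strand, and its ATCAAT lay 29.5, 39.5 and 16.5 bp from the summits of replicates 1, 2 and 3. Hoxa2, a homeobox gene that patterns the hindbrain and the second branchial arch, has its window at chr6:52164782-52165081 on the minus strand, with distances of 4.5, 51.5 and 20.5 bp. At Zfhx2, which encodes a zinc finger homeobox protein, the window is chr14:55091999-55092298 on the minus strand. The nearer of its cores lay 147.5, 125.5 and 69.5 bp from the summits. All Zfhx2 summits lay outside the printed window, so it does not show whether a core lies at them.

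A search of all windows gave the background for these matches, with motifs chosen after the data had been seen. ATCGAT was found in 4 of the 40 distinct windows that overlapped a wide region (10.0%, 2.79% to 23.7%), in 45 of 389 that overlapped a narrower one (11.6%, 8.56% to 15.2%), and in 304 of all 32817 windows (0.926%). Of the 4, the Gm35940 window and the one on the opposite strand hold the same site, so they are not independent. ATCAAT or ATTGAT was found in 7 of the 40 (17.5%, 7.34% to 32.8%), in 110 of the 389 (28.3%, 23.9% to 33.0%) and in 7.54% of all windows. The AP-1 site TGACTCA or its reverse TGAGTCA was found in 2 of the 40 (5.00%), in 3.86% of the 389 and in 5.20% of all. CCAAT or its reverse ATTGG was found in 27 of the 40 (67.5%), in 62.2% of the 389 and in 37.4% of all. ATCAAT can share letters with CCAAT, as it does in the Hnrnpa1 window. The intervals of wide and narrower windows overlapped for ATCGAT and for ATCAAT, and a difference between them was not detectable with 40 windows. Overlap can be at an edge only, and all 3 summits lay in 11 of the 40 windows and in 211 of the 389. Among those, ATCGAT was found in 27.3% of the 11 and 17.5% of the 211. ATCAAT or ATTGAT was found in 18.2% of the 11 (2.28% to 51.8%) and 39.3% of the 211 (32.7% to 46.3%). Distances to ATCGAT were taken only where the median summit lay in a window that holds it, which bounds them. The median distance was 3.5 bp in the 3 wide regions (range 3.5 to 35.5 bp). It was 17 bp in narrower ones (range 0.5 to 67.5 bp, n = 38). For ATCAAT or ATTGAT the order was the other way. There the median was 29.5 bp in 3 wide regions (range 4.5 to 33.5 bp). In narrower ones it was 15.5 bp (range 0.5 to 165.5 bp, n = 86).

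The 12 widest regions ranked between 200 and 4096 by fold among the 5099 shared regions. In wide regions the median merged width was 694 bp and the longest was 1418 bp, against a median of 379 bp in narrower ones. Fold is the ChIP pileup at the summit over the expected background, with 1 added to each, and for each region the peak of highest fold in a list stands for that list. Median folds in replicates 1, 2 and 3 were 4.24, 4.46 and 4.14 in wide regions, against 3.94, 4.18 and 4.05 in narrower ones. The mean of these medians was 4.28 in wide and 4.06 in narrower regions. In the 104 regions of 800 bp or more the medians were 4.46, 4.46 and 4.27. Across the 5099 regions the Spearman correlation of width with fold was 0.12, 0.06 and 0.09 in replicates 1 to 3, over points that share the same libraries. Wide regions held 3 of the 5, 4 of the 10 and 20 of the 100 highest ranks of fold. Among the 500 highest ranks they held 68 (13.6%), beside 10.1% of all shared regions.

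**Figure D1:**
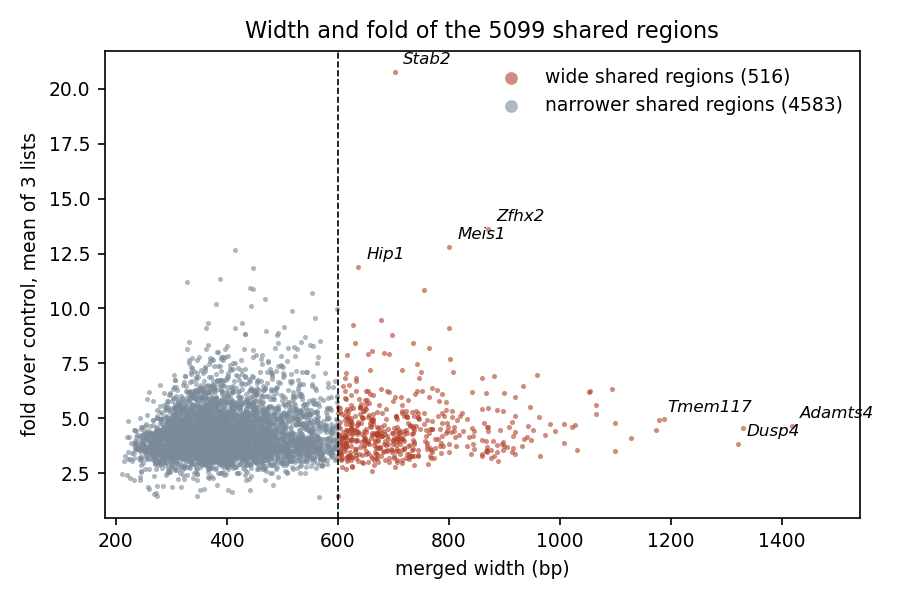
Merged width in bp (x) against the mean fold over control of the 3 lists (y) for 516 wide (right of the dashed line at 600 bp) and 4583 narrower shared regions, each point 1 region. Stab2, Zfhx2 and Meis1 lie above the narrower regions, while Adamts4, the widest at 1418 bp, lies within their range.

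Most wide regions held 1 peak per list, as 441 of 516 did (85.5%), against 4582 of 4583 narrower ones. More than 1 peak of a list was found in 75 wide regions (14.5%), set beside 1.49% of all shared regions and 1 narrower region. Of the 516, 59 held 4 peaks, 14 held 5, 1 held 6 and 1 held 7. Replicates 1, 2 and 3 had more than 1 peak in 27, 33 and 33 wide regions. Neighbouring summits of 1 list within such a region were a median of 445.5 bp apart (n = 94 pairs) and never closer than 290 bp. Joining only peaks of different lists that overlapped by 50% of both left 287 wide regions and none with more than 1 peak of a list. Leaving out replicate 1 or replicate 3 lowered the share with more than 1 peak to 8.36% and 9.59%, and without replicate 1 the number of wide regions was 323.

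In most wide regions the highest-fold peak was itself 600 bp long in at most 1 list. The highest-fold peak of the list was at least 600 bp long in 184 wide regions in replicate 1, 89 in replicate 2 and 168 in replicate 3. A lower peak of the same list was not counted, such as 1 of 613 bp near Adamts4 in replicate 2. In 173 wide regions no list had a highest-fold peak of that length, in 260 only 1 list did, in 68 it was 2 lists and in 15 all 3. The highest peak of a wide region had a median width of 541, 394 and 518 bp in replicates 1, 2 and 3, against 302, 270 and 296 bp in narrower ones. Over all shared regions, peak widths of any pair of lists had a Spearman correlation of 0.31. Of the 184 regions with such a highest-fold peak in replicate 1, 30 had one in replicate 2 and 53 in replicate 3. Bases covered by all 3 lists made up a median of 39.9% of a wide region, against 58.1% of a narrower one. In 26 wide regions (5.04%) no base was common to the lists, against 21 narrower ones (0.458%).

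The summits of the 3 lists were farther apart in wide regions. Summit spread, the distance in bp between the outermost of the 3 highest-fold summits, had a median of 115 bp in wide regions (quartiles 59 and 301 bp), against 64 bp in narrower ones (37 and 103 bp). The spread exceeded 200 bp in 188 wide regions (36.4%), against 251 narrower ones (5.48%). It was at most 50 bp in 102 wide regions (19.8%), against 1762 narrower ones (38.4%). Spread was not confined to regions of several peaks, since the median was 110 bp in the 441 wide regions with 1 peak per list and 280 bp in the 75 with more. A wider region leaves more room for its summits, and the spread is given as measured, without adjustment for width. With only 2 lists merged, without replicate 3, the median spread of wide regions was 70 bp, and it was 39 bp in narrower ones.

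**Figure D2:**
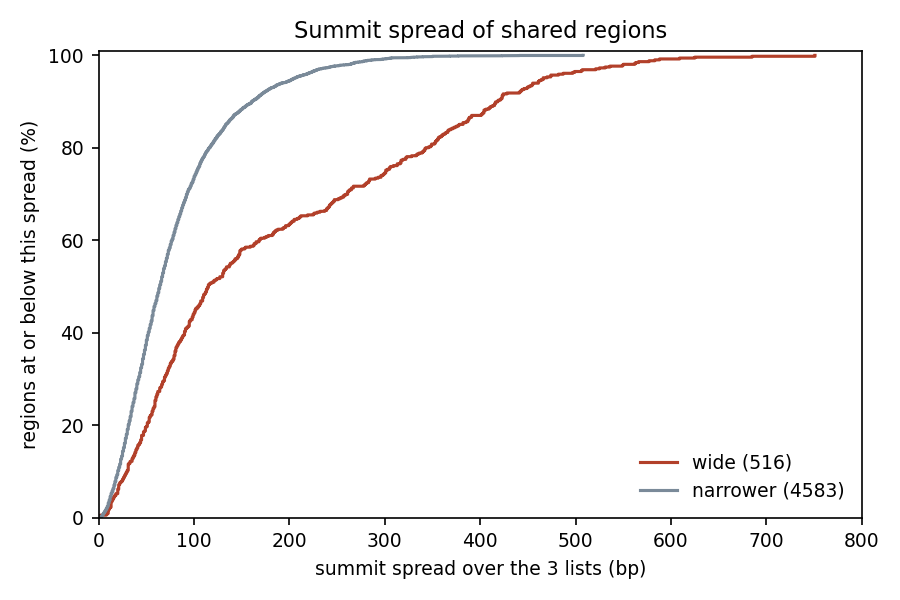
Cumulative percent of regions (y) at or below a given summit spread in bp (x), for 516 wide and 4583 narrower shared regions. The wide curve lies to the right, with 36.4% of wide and 5.48% of narrower regions beyond 200 bp.

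On either side of the threshold the values were as follows, with no test. The 30 regions of 600 to 609 bp had a median spread of 145 bp and median folds of 3.94, 3.94 and 3.88 in replicates 1 to 3. The 34 regions of 590 to 599 bp had a median spread of 96.5 bp and median folds of 3.85, 4.45 and 3.97. Between genes lay 17 of the 30 and 15 of the 34, and within 3 kb of a gene end 1 and 4.

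Adamts4, which encodes an aggrecanase of the extracellular matrix, was nearest to the widest region, of 1418 bp. It held 2 peaks in each list, and the outermost of the highest-fold summits were 625 bp apart. Its highest folds were 3.49, 5.01 and 5.41 in replicates 1 to 3, and it ranked 1522 by fold among the shared regions. In replicate 2 the left peak was the higher, with folds of 5.01 and 4.46, while in replicate 3 the right one was, with 3.82 and 5.41. In replicate 1 the left peak had a fold of 2.73 and a q value of 0.521, past the limit of 0.05. The other Adamts4 peaks were within that limit. Dusp4, a MAP kinase phosphatase gene 294.885 kb away, was nearest to the region with the most peaks, 3 in replicate 1 and 2 in each of the other lists. Its highest folds were 4.74, 3.25 and 3.42, and the q value in replicate 2 was 0.122, past the limit of 0.05. The lower peak of replicate 2 was past it too, as was that of replicate 3, with a q value of 0.232. The peaks of replicate 1 and the higher peak of replicate 3 were within it. Both regions were therefore rows of separate called peaks, not all of them within the q limit.

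Other regions among the 12 widest held a long peak of 1 list and short peaks of the others. At Il15, a cytokine gene, replicate 1 had a peak of 1100 bp that spanned the whole region, while those of replicates 2 and 3 were 239 and 218 bp and the 3 lists had 24 bp in common. Its folds were 4.03, 3.38 and 3.13. Near Mcfd2, which acts in transport from the endoplasmic reticulum, the peak of replicate 1 covered 1128 bp, with highest peaks of 260 and 278 bp in the others. Near Pdzrn3, a ubiquitin ligase gene, peak widths were 1165, 283 and 452 bp and folds 6.66, 5.01 and 3.18. In these regions replicate 1 was the long one in each case, whereas near Gm17019 it was replicate 2, with 1071 bp against 526 and 469 bp.

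The Gm17019 region also differed in background. There the pileup was 90 fragments in replicate 1 and 94 in replicate 3, over an expected background of 21.8 and 20.1 fragments. The lowest background any shared region had was 2.30 in replicate 1 and 2.14 in replicate 3. Raised backgrounds had similar shares in both sets, and at least 2 times the lowest background was found in 16 wide regions (3.10%) in replicate 1, against 149 narrower ones (3.25%). In replicate 3 it was 21 wide (4.07%) against 161 narrower regions (3.51%). Pileups could not be solved for in replicate 2.

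Stab2, a scavenger receptor gene of sinusoidal endothelium, held the strongest shared region of all, 703 bp wide and inside the gene. Its folds were 22.7, 18.9 and 20.7, and the summits lay within 33 bp of each other. Peak widths were 628, 492 and 596 bp. Zfhx2 ranked second, with folds of 12.6, 15.4 and 12.8 in a region of 870 bp whose midpoint lay 0.191 kb from a gene end. Its peaks were 870, 755 and 751 bp long, with a summit spread of 78 bp. Both had summits closer together than the Adamts4 region.

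Meis1, a TALE homeobox factor that binds DNA beside HOX proteins, came next by fold. Its folds were 12.7, 12.2 and 13.4 in a region of 801 bp, 1.001 kb from a gene end. The summits fell within 11 bp, but peak widths were 404, 383 and 801 bp, so replicate 3 alone made the region wide. Hip1, which encodes a clathrin-associated endocytic protein, had folds of 11.8, 13.3 and 10.5 and summits within 1 bp. Of the 12 wide regions with the highest ranks, the others lay nearest to Pkp4, Pard3, St6galnac1, Rnf24, Slit1, Sox5, Stambpl1 and Med13. All 12 held 1 peak per list, their summit spreads were 1 to 91 bp, and their mean folds ran from 7.90 at Stambpl1 to 20.8 at Stab2. Slit1 encodes an axon guidance ligand, Sox5 a SOX family factor, Pard3 a cell polarity protein and Med13 a subunit of the Mediator kinase module.

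**Figure D3:**
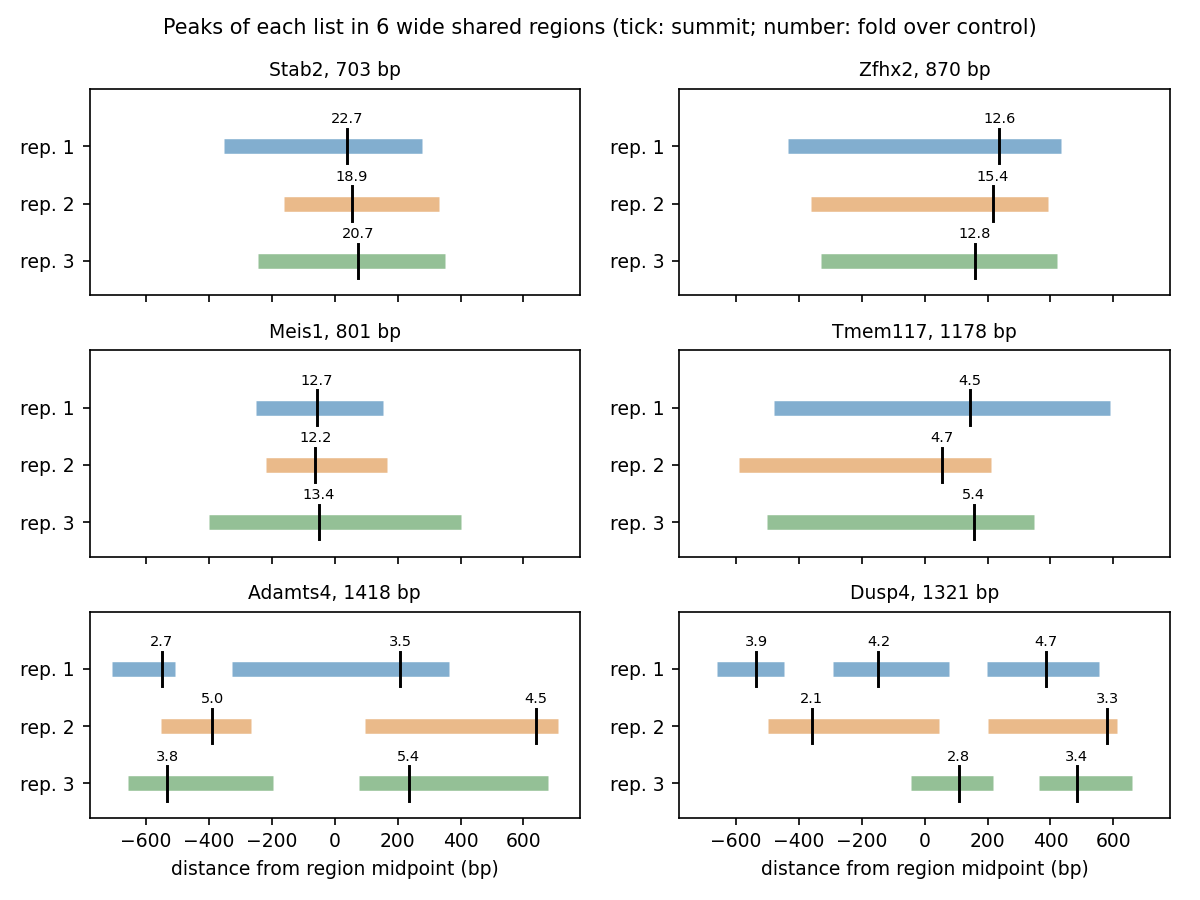
Peaks of each replicate (bars), their summits (ticks) and folds (numbers) by distance in bp from the region midpoint, in 6 wide regions. In Stab2, Zfhx2 and Meis1 the summits lie within 33, 78 and 11 bp, while Adamts4 and Dusp4 hold 6 and 7 separate peaks.

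In only 15 wide regions was the highest-fold peak of every list at least 600 bp long. This subset was singled out after the values were seen. Each held 1 peak per list, the merged widths ran from 670 to 1178 bp, and the median summit spread was 81 bp. Near Rnf24, a RING finger gene, peaks were 743, 673 and 763 bp long with folds of 9.93, 9.18 and 8.28. Near Tmem117 they were 1069, 800 and 850 bp long with folds of 4.54, 4.73 and 5.41. At the promoter of Parvb, which encodes the focal adhesion protein beta-parvin, they were 881, 913 and 844 bp with folds of 5.90, 6.12 and 4.44. The region of lowest fold rank in the subset lay 941.813 kb from Gata3, with folds of 2.68, 3.48 and 3.91. The rest lay nearest to Cdkl4, Xpnpep1, Slc8a1, Ppp1r42, Tle4, Hnrnpa1, Entpd7, Mmp16, Qser1 and Pax2. Of the 15, 5 were within 3 kb of a gene end, 4 deeper inside a gene and 6 between genes, and 7 were among the 500 highest ranks of fold.

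Wide regions lay more often between genes and less often at gene ends than narrower ones. A region counted as at a gene end when its midpoint was no more than 3 kb from where a protein-coding gene starts or stops. This held for 72 wide regions (14.0%, 95% Clopper-Pearson interval 11.1% to 17.2%), set beside 18.2% of all shared regions and 856 narrower ones (18.7%, 17.6% to 19.8%). Between genes lay 259 wide regions (50.2%, 45.8% to 54.6%), beside 42% of all shared and 1882 narrower ones (41.1%, 39.6% to 42.5%). Deeper inside a gene lay 185 wide regions (35.9%), beside 39.8% of all shared and 1845 narrower ones (40.3%). The median distance to a gene end was 45.1 kb for wide regions and 25.8 kb for narrower ones, and 163 wide (31.6%) and 1034 narrower regions (22.6%) were more than 100 kb away. Regions of 1 genome are not replicates, so the intervals cover counting error only and no p-value is given. The gene-end share was lower and the between share higher in wide regions under each of the settings tried, including each pair of lists.

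In width classes, chosen after the data had been seen, the share between genes was 39.1%, 40.6%, 40.7% and 45.1% for regions of 200 to 299, 300 to 399, 400 to 499 and 500 to 599 bp. It was 49.2% at 600 to 699 bp, 44.6% at 700 to 799 bp and 60.6% (50.5% to 70.0%) in the 104 regions of 800 bp or more. The gene-end share over the same classes was 20.3%, 20.1%, 16.4%, 17.3%, 11.7%, 15.5% and 17.3%, so it did not fall steadily with width. Among the 3 classes of equal size by fold rank, the gene-end share in wide and narrower regions was 15.4% and 23.3% in the strongest, 13.9% and 19.3% in the middle and 12.0% and 13.7% in the weakest. The shares between genes were 50.5% and 37.6%, 47.6% and 41.2%, and 52.8% and 44.3%. Wide regions thus stood on the same side of narrower ones in each strength class, though the intervals of both shares overlapped in the middle and weakest classes.

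**Figure D4:**
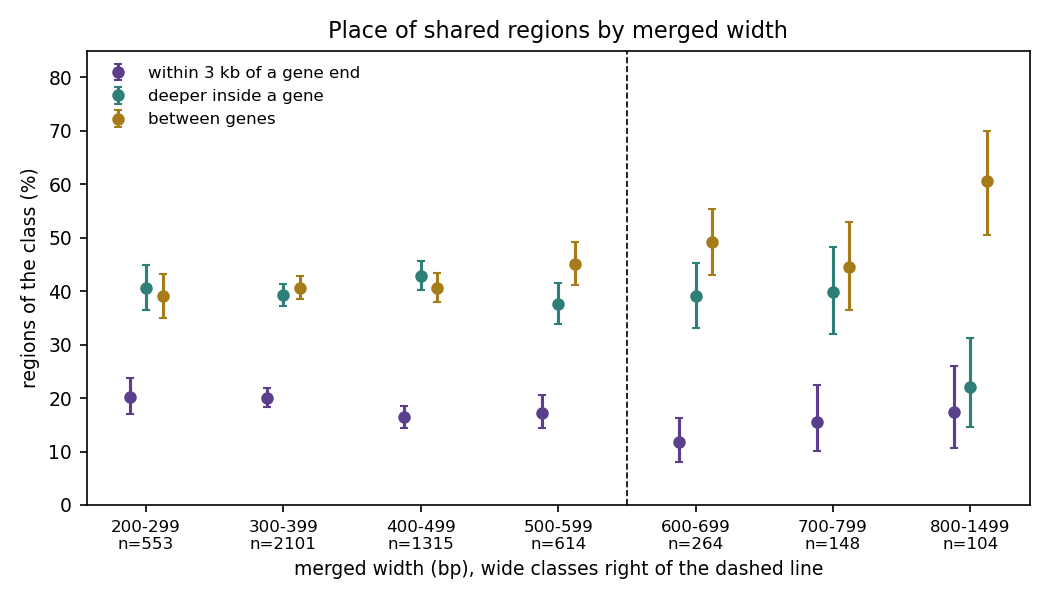
Percent of shared regions (y) within 3 kb of a gene end, deeper inside a gene or between genes, by merged width class in bp (x), with 95% Clopper-Pearson intervals as bars. The share between genes is 60.6% in the class of 800 bp or more, while the gene-end share is 11.7% to 17.3% in the 3 wide classes.

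Wide regions were found on each of the chromosomes counted. They made up 15.0% of the shared regions on chromosome 17 (31 of 207), 13.4% on chromosome 15 and 13.1% on chromosome 2 (64 of 489). The lowest shares were 3.54% on chromosome 7 (4 of 113), 5.00% on chromosome X (3 of 60) and 5.60% on chromosome 18. Another shared region lay within 50 kb of 188 wide regions (36.4%), beside 33.7% of all shared and 1532 narrower ones (33.4%). A q value of at most 0.05 in all 3 lists was reached by 321 wide regions (62.2%), beside 57% of all shared and 2586 narrower ones (56.4%).

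The 516 wide regions had 463 protein-coding genes as their nearest, 2.14% of the 21631 in the table, and for 375 genes (1.73%) at least 1 such region lay within 100 kb. A nearest gene is a position only, and no expression was measured here. Among TALE homeobox genes, whose products are partners of HOX proteins, Meis1 and Pbx3 were nearest to a wide region. The Pbx3 region of 841 bp lay inside the gene, with folds of 5.15, 8.35 and 5.09. It was weaker than the Meis1 region in every list.

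Of 20 AP-1 and immediate early genes 3 were nearest to a wide region, and none of these regions lay within 100 kb of its gene. They were Myc, 654.905 kb away with folds of 3.94, 4.11 and 5.70, Jun, 166.460 kb away with 4.84, 4.11 and 4.46, and Klf6, 189.332 kb away with 4.78, 2.90 and 3.74. Of 30 extracellular matrix and fibroblast genes 4 were nearest to a wide region, each with at least 1 such region within 100 kb. Near Thbs1, which encodes thrombospondin 1, the widest region, of 868 bp, lay 0.958 kb from a gene end, with folds of 3.33, 4.46 and 2.56 and a spread of 404 bp. The q value there was 0.746 in replicate 3. Another wide region nearest to Thbs1, of 739 bp and 125.870 kb away, had folds of 6.96, 5.55 and 5.73. Near Vim, which encodes the intermediate filament vimentin, a region of 693 bp lay 1.467 kb from a gene end. Its midpoint was outside the gene, 9.982 kb downstream of the transcription start. Folds there were 2.95, 3.07 and 3.50, with q values of 0.193, 0.368 and 0.043 in replicates 1, 2 and 3. By fold the Vim region ranked 4705 among the shared regions. Near Col6a3, a collagen VI chain gene, the region was 962 bp wide and 12.640 kb away, with folds of 6.04, 4.06 and 5.06. The fourth, outside the naming rule, was Col1a2, a collagen I chain gene 59.629 kb from a region of 677 bp.

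Of 30 actin and focal adhesion genes only Myh9 was nearest to a wide region. It encodes a non-muscle myosin heavy chain, and its region of 871 bp lay 0.668 kb from a gene end with folds of 5.45, 5.57 and 5.39 and a summit spread of 28 bp. Of 26 TGF-beta and BMP genes only Ski, a repressor of SMAD signalling, was nearest, with folds of 6.36, 4.18 and 5.41 in a region of 614 bp inside the gene. Of 32 chromosome segregation genes only Incenp was, which encodes a subunit of the chromosomal passenger complex. Its region of 655 bp lay 8.955 kb from a gene end, with folds of 6.64, 5.11 and 7.0, q values of at most 3.37e-06, and summits within 76 bp. Cdca8, another subunit of that complex, was not nearest to any wide region. None of 20 Hippo pathway, 20 hepatocyte and endoderm or 20 neuronal fate genes was nearest to one. Lists of this size hold few genes, and the counts are given beside the 2.14% of all genes as a description. Nearest to any shared region were 3377 of the 21631 genes, and 463 of these were nearest to a wide one. In the lists it was 6 of 20 AP-1, 12 of 30 matrix, 11 of 30 actin and 10 of 26 TGF-beta genes. It was 8 of 32 chromosome segregation, 9 of 20 Hippo, 3 of 20 hepatocyte and 6 of 20 neuronal genes. Whether a list favoured wide over narrower regions was not tested.

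Of the 463 genes, 46 were nearest to more than 1 wide region and 7 to 3 of them. The 7, named after the values were seen, were Glis3, Gpam, Myo16, Sorcs1, Wrn, Zeb2 and Zfpm2. At Zeb2, a zinc finger homeobox repressor gene, the regions lay 14.349, 228.260 and 908.411 kb from a gene end. Their folds in that order were 4.84, 3.94 and 4.24 in replicate 1 and 5.01, 3.07 and 3.35 in replicate 2. In replicate 3 they were 4.14, 4.14 and 4.78. The q values in replicate 2 were 2.01e-05, 0.368 and 0.122, so only the nearest region passed the q limit there. In replicates 1 and 3 every Zeb2 region passed it. Hoxa2, also singled out after its values were seen, was nearest to 2 wide regions, 0.583 and 0.003 kb from a gene end. Folds at the first were 5.64, 5.45 and 4.05, and at the second, which holds the printed ATCAAT, they were 4.33, 3.29 and 3.85.

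Whether wide regions are found again in another library was asked with lists the choice had not used. For each list in turn, regions were called wide or narrower from the other 2 lists, and peaks were then looked up in the list held out. With replicates 1, 2 and 3 held out, a peak overlapped 90.4% of 323, 74.5% of 549 and 85.2% of 365 wide regions, against 75.6% of 6346, 52.8% of 8862 and 69.3% of 6895 narrower ones. The mean was 83.4% ± 8.11 in wide and 65.9% ± 11.8 in narrower regions (SD, n = 3), a difference of 17.5 percentage points in the same direction in 3 of 3 lists. An exact two-sided sign-flip permutation test gave p = 0.25, the smallest that 3 lists allow, so this design cannot pass 0.05. The same 3 libraries take turns as chooser and as held-out list, so the comparisons are not independent.

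A wide region is also a larger target for any peak. When a held-out summit had to lie within 100 bp of the mean summit of the other 2 lists, a rule added after the data had been seen, the order of the means reversed. Found were then 57.9%, 49.0% and 54.8% of wide regions with replicates 1, 2 and 3 held out, against 66.8%, 47.3% and 61.1% of narrower ones. The means were 53.9% ± 4.52 in wide and 58.4% ± 10.0 in narrower regions (SD, n = 3), a difference of -4.51 percentage points with p = 0.5 in the exact sign-flip test. Only with replicate 2 held out was the wide share the higher one.

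Peaks in the held-out list had higher medians of fold and width in regions chosen as wide. The median of the highest fold was 4.49, 4.46 and 4.27 with replicates 1, 2 and 3 held out in wide regions, against 3.94, 4.18 and 4.05 in narrower ones (3 of 3 lists, mean difference 0.348, exact sign-flip p = 0.25). The median width of that peak, a measure added after the data had been seen, was 479.5, 363 and 452 bp in wide regions, against 306, 271 and 300 bp in narrower ones (3 of 3 lists, mean difference 139 bp, exact sign-flip p = 0.25). The highest-fold held-out peak was at least 600 bp long in 26.7%, 13.9% and 24.4% of the wide regions with a peak, against 2.29%, 0.684% and 1.90% of the narrower ones. Most wide regions of 2 lists thus did not meet the width again in the highest-fold peak of the list left out.

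**Figure D5:**
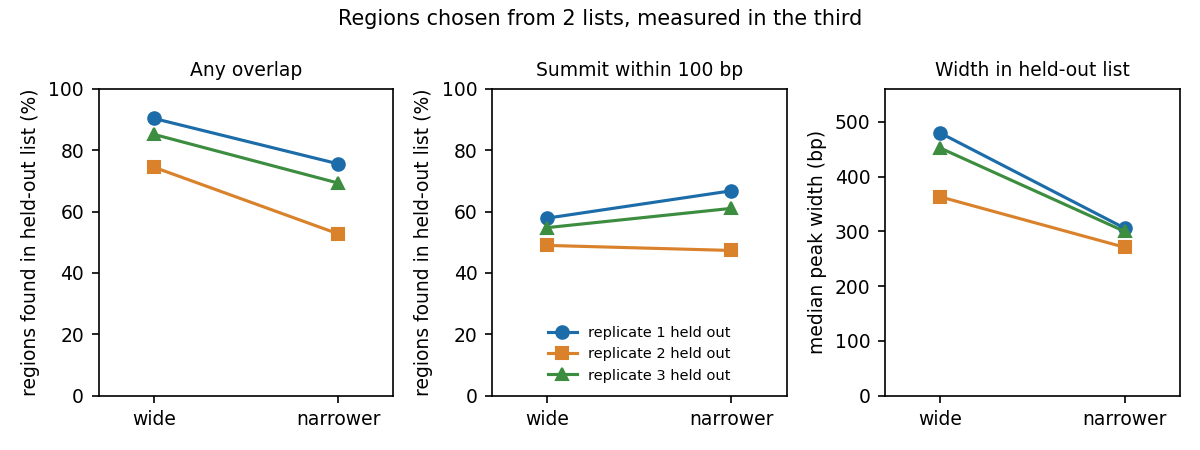
Wide and narrower regions chosen from 2 lists and measured in the list held out, with 1 line per held-out replicate: percent with any overlapping peak, percent with a summit within 100 bp, and median peak width in bp. Wide regions are higher in 3 of 3 lists in the left and right panels, and in 1 of 3 in the middle one.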

How the data were processed

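Peak lists were used from the 3 Onecut3-OE FLAG libraries. Build GRCm38, MACS2 2.1.0, Bowtie2 2.2.6 and deepTools 3.3.2 are named in the submitters' notes on processing, without their roles. The authors deposited, for each peak, a position and summit, a fold, a score, and the p-value and q-value as -log10. The lists hold 31600, 12856 and 24822 peaks with -log10 p of at least 2.00, and read depth is unknown. More peaks in a list give more overlaps, and folds were compared only within a list.

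Peaks were merged, placed and counted with Python 3.11.15, numpy 2.4.6, pandas 2.3.3 and scipy 1.17.1, and scripts were tested on simulated data. Pileup and background were worked out from fold and p-value. The promoter window table holds none on chromosome 18. Intervals are exact (Clopper-Pearson, 95%) and cover counting error only. The planned transcription start sites were replaced by either gene end, since the RefSeq gene table of GRCm38.p6 (21631 protein-coding genes) gives no strand. Named genes were those nearest to the 12 widest and the 12 highest-ranked wide regions and, from each of 9 gene lists, up to 3 members nearest to a wide region, with Incenp and Cdca8. Members and lists were chosen with earlier results of these data known. Exons and sequence outside promoter windows were not used here. Some items that the naming rule covers are not reported here.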

Additional observations from a re-analysis of the deposited data

How the results depend on the processing

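A count of regions was taken as kept within 1.5 times, a share, spread or fold within its interval or SD, and the held-out percentage by its direction. By these limits 15 of 42 alternatives kept the value, 26 moved it and 1 reversed it. With a minimum width of 500 bp there were 1130 wide regions, 6.73% with more than 1 peak of a list and a median spread of 102 bp. With 800 bp there were 104, with 42.3% and a gene-end share of 17.3%. With only peaks of -log10 q of at least 2 there were 222, with 3.60%, a spread of 73.5 bp, a gene-end share of 18.5% and a mean fold of 5.10. With 50% overlap of both peaks there were 287, with 0%, 94 bp and a fold of 4.59. Leaving out 1 replicate gave 323 to 549 regions, 8.36% to 10.0% with more than 1 peak, spreads of 70 to 87 bp, gene-end shares of 13.1% to 15.3% and folds of 3.98 to 4.35. Gene-end limits of 1 and 10 kb gave 9.30% and 24.2%, and the distance between any 2 summits a median of 146 bp. The held-out percentage was 79.9% at 500 bp, 88.6% at 800 bp and 81.0% with the stricter q. The summit rule of 100 bp, added after the data had been seen, turned its difference to -4.51 points, with 53.9% of wide regions found. Stricter limits choose fewer regions by construction, and other causes were not tested.

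No paired analysis was possible because only the Onecut3-OE FLAG group had peak lists. Without the control FLAG, IgG and input libraries, background at wide regions was not measured directly. Width depends on depth and on the peak caller's joining of nearby peaks, which cannot be told apart from a wider bound stretch here. Outside chromosomes 1 to 19 and X lay 15 more shared regions, 2 of them at least 600 bp wide.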
